A study of Mus musculus with 41 samples.

Results

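The principal cell of the kidney collecting duct sets how much water and sodium leave in the urine. Vasopressin binds the receptor encoded by Avpr2 on the blood side of the cell, cyclic AMP rises, and the water channel encoded by Aqp2 is moved to the urine side and made in larger amounts. Water then leaves the cell on the blood side through the channels encoded by Aqp3 and Aqp4. Sodium enters through the epithelial sodium channel ENaC, whose alpha, beta and gamma subunits are encoded by Scnn1a, Scnn1b and Scnn1g and whose activity is raised by aldosterone. Fxyd4, also called CHIF, regulates the sodium pump on the blood side, and Gata3 and Elf5 encode transcription factors found in the collecting duct, Elf5 as a principal cell factor. These 10 genes, of 48795 in the count table, were chosen as a named set of principal cell genes, and all 10 were found by symbol and passed the filter on low counts in both cohorts.

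The data are counts of 3′ end messenger RNA reads per gene in mouse kidney. In the first cohort, of male mice aged 8 to 10 weeks, the left kidney was clamped for 21 min, with the body held at 34 °C, and reperfused (unilateral ischemia-reperfusion injury, UIRI). UIRI+Nx d7 kidneys came from mice whose healthy right kidney was removed (nephrectomy, Nx) on day 3 and were taken on day 7, UIRI d7 kidneys from mice with a sham nephrectomy on day 3 and taken on day 7, UIRI d3 kidneys were taken on day 3, and Control mice had no ischemia; each group had 6 libraries. The second cohort, titled WT, held 4 UIRI+Nx d7, 6 UIRI d7 and 6 UIRI d3 libraries and no Control group, and the labels used here do not give its sex, age, ischemia time or day of nephrectomy. No strain is given for either cohort, and the 3 injured groups share the ischemia, so nephrectomy was studied only in mice with an injured kidney.

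Library totals ran between 5090418 and 33362940 counts. The RNA came from a frozen piece of the kidney pole, so the share of medulla in each piece, where much of the collecting duct lies, is not known. Markers of other cells differed widely between the groups of the first cohort. The summed level of 13 proximal tubule genes, in CPM (counts scaled to library size), was 3655 to 7838 in UIRI+Nx d7, 4907 to 15010 in UIRI d7, 10040 to 16420 in UIRI d3 and 46710 to 71900 in Control. That of 10 macrophage genes was 1220 to 2229 CPM in UIRI+Nx d7, 1566 to 3261 CPM in UIRI d7, 463.4 to 947.1 CPM in UIRI d3 and 178.9 to 335.7 CPM in Control. In that cohort the share of counts from mitochondrial genes was 3.36 to 5.66% in UIRI+Nx d7, 2.27 to 3.85% in UIRI d7, 3.28 to 5.27% in UIRI d3 and 6.21 to 10.6% in Control, and the part of these shifts in the results below was not tested. In bulk tissue, fewer cells of a type and less RNA per cell cannot be told apart, and this holds for every level given here.

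A pair of promoter windows is shown here because the genes are those of the hormone receptor and of the water channel it controls. They are RefSeq sequences on the build GRCm38.p6, each 250 bases before to 50 bases after the annotated start, 5′ to 3′ on the gene's own strand. Capitals mark GATAA, the core read by GATA factors such as the Gata3 product, and TGACG, the core of the cyclic AMP response element, on either strand; the first reads TTATC and the second CGTCA on the opposite strand.
Aqp2 (chr15:99578806-99579105, plus strand): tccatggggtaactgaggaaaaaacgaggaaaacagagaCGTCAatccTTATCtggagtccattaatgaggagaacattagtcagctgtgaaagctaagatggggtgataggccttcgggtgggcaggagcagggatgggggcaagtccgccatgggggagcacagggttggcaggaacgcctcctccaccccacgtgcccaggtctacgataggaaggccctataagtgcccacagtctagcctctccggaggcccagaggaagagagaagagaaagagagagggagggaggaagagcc
Avpr2 (chrX:73891852-73892151, plus strand): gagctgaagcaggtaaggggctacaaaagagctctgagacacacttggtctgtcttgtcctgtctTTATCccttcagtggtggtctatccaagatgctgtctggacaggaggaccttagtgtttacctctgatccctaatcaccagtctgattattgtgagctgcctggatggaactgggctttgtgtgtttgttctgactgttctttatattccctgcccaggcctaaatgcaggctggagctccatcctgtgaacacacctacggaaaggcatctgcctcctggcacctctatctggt
In the Aqp2 window the CGTCA began 211 bases and the TTATC 202 bases before the start. In the Avpr2 window a TTATC began 185 bases before the start and no TGACG core was found. The sequence table held 9 windows for 8 of the 10 genes, with none used for Aqp4 and Scnn1a and 2 for Elf5. GATAA lay in 3 of the 9 windows (Aqp2, Avpr2 and Elf5) and in 25.4% of all 32851 windows, and TGACG in 2 of 9 (Aqp2 and Elf5) and in 20.8% of all. The longer GATA motif AGATAA was in the Aqp2 window, where it overlaps the GATAA match, and in 11.2% of all windows. CAGGAA, an ETS factor core, was in 3 of the 9 (Aqp2, Elf5 and Scnn1b) and in 30.6% of all, AGAACA, a steroid receptor half-site, in 2 of 9 (Aqp2 and Avpr2) and in 19.0% of all, and TGGAAA, a core read by Nfat5, in none of the 9 and in 21.4% of all. These matches describe letters in the windows, and binding was not measured.

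In ischemic kidneys without nephrectomy, Avpr2, Aqp2, Aqp3, Scnn1a and Scnn1b were lower than in Control at both times, Scnn1g at day 3, and Aqp4 and Fxyd4 at day 7. At day 3, 6 of the 10 genes fell and none rose, and at day 7 there were 7 that fell and none that rose (edgeR quasi-likelihood test, Benjamini-Hochberg adjusted p below 0.05 over 15701 genes). Among all genes tested, 14.9% were called lower and 17.8% higher at day 3, and 18.1% lower and 21.5% higher at day 7. The median log2 fold change of the 10 genes was -1.17 at day 3 and -1.06 at day 7, against 0.0006 and 0.04 over all genes. In kidneys taken at day 7 after nephrectomy, 1 of the 10 was called lower than Control, where 14.0% of all genes were lower and 17.3% higher, and the median over the 10 was -0.57 against 0.02 over all genes.

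**Figure D1:**
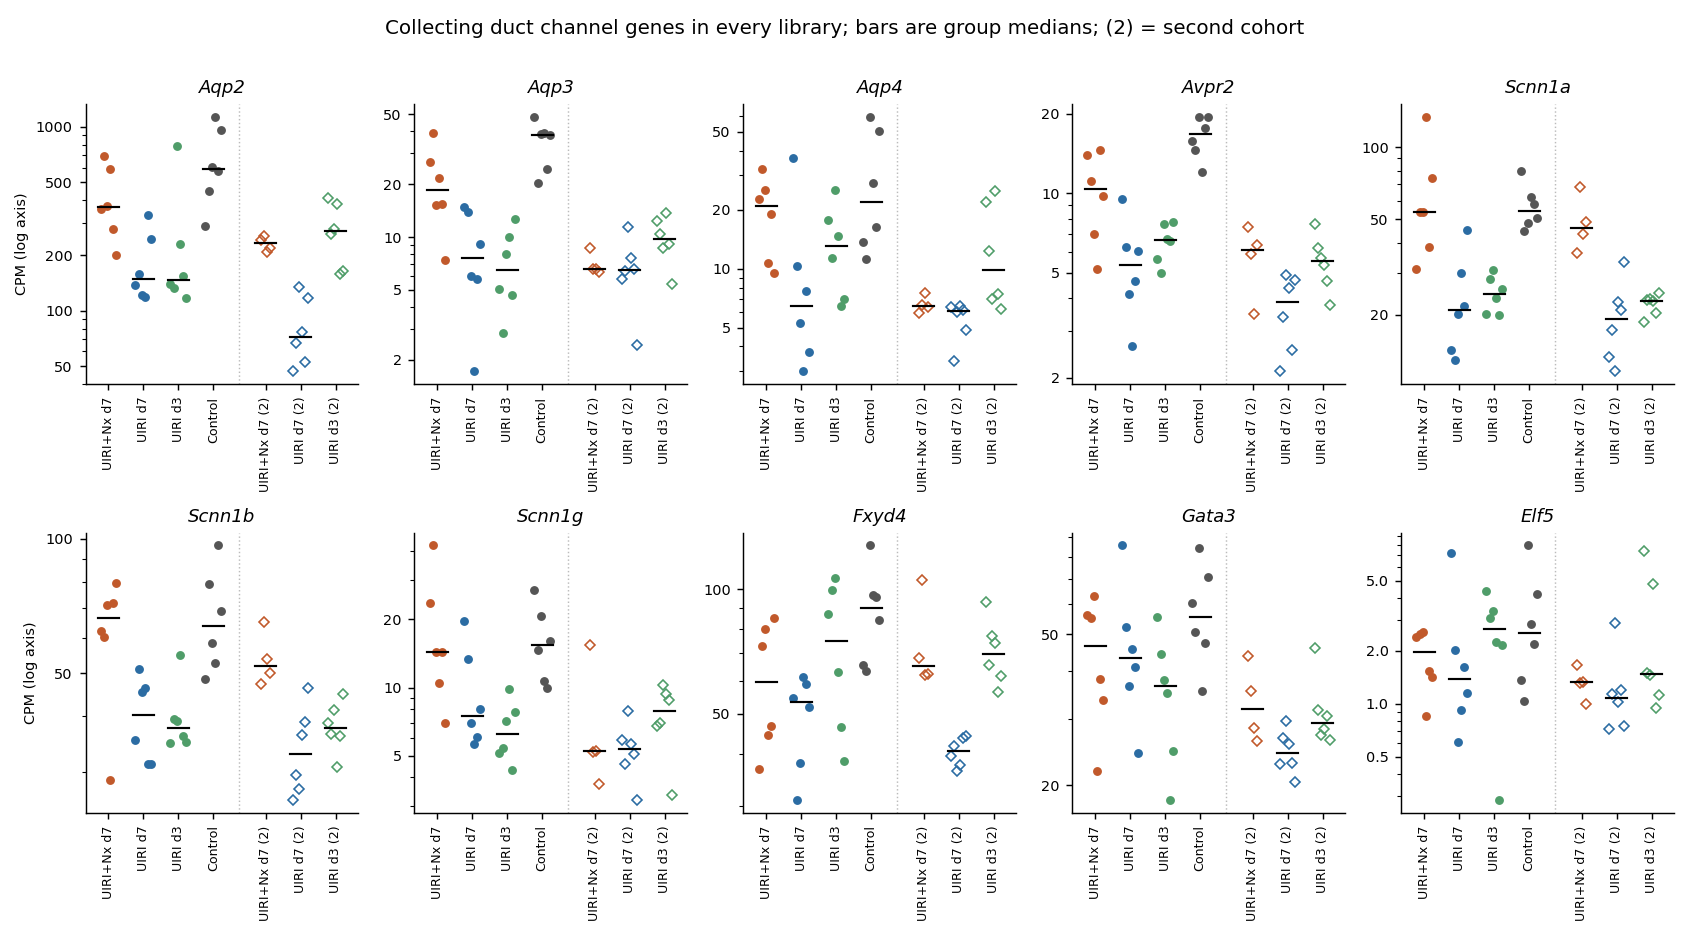
Level of each of the 10 genes in each of the 40 libraries with a group, in CPM on a log axis; filled circles are first cohort libraries, open diamonds second cohort libraries (2), and bars are group medians. Aqp3 and Avpr2 lay lower in every UIRI d7 and UIRI d3 library than in every Control library, and Scnn1a lay higher in every second cohort UIRI+Nx d7 library than in every UIRI d7 library of that cohort.

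Avpr2, the vasopressin V2 receptor gene (chromosome X, 73892102 to 73895502, plus strand, GRCm38), was lower in all 3 injured groups than in Control. Its lowest, median and highest levels were 5.15, 10.4 and 14.6 CPM in UIRI+Nx d7, 2.64, 5.35 and 9.53 CPM in UIRI d7, 4.98, 6.64 and 7.76 CPM in UIRI d3 and 12.02, 16.7 and 19.5 CPM in Control. Every UIRI d7 and UIRI d3 library lay below every Control library, while the UIRI+Nx d7 libraries overlapped with Control. Such a separation below Control was found for 3 of the 10 genes and 9.61% of all genes in UIRI d7, and for 4 of the 10 genes and 8.08% of all genes in UIRI d3. The log2 fold change against Control was -1.56 ± 0.26 (SE) in UIRI d7 (adjusted p = 2.45e-05) and -1.33 ± 0.26 in UIRI d3 (adjusted p = 0.000202). In UIRI+Nx d7 it was -0.69 ± 0.25 (adjusted p = 0.041), and this call was lost in 8 of 12 fits that each left out 1 library. Avpr2 overlaps L1cam and Arhgap4 on the opposite strand, and the strand setting of the counting is not given, so reads of these genes cannot be told apart.

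Aqp2, the vasopressin-regulated water channel gene (chromosome 15, 99579055 to 99584547, plus strand), had its lowest, median and highest levels at 200.1, 365.8 and 693.0 CPM in UIRI+Nx d7, 118.3, 148.3 and 332.0 CPM in UIRI d7, 117.6, 147.2 and 785.8 CPM in UIRI d3 and 288.7, 588.9 and 1137 CPM in Control. In UIRI d7 and in UIRI d3, 5 of 6 libraries lay below every Control library. UIRI d3 replicate 3, at 785.8 CPM against 231.5 CPM for the next library of its group, lay within the Control range. Aqp2 fell by 1.85 ± 0.44 on the log2 scale in UIRI d7 against Control (adjusted p = 0.00129). In UIRI d3 it fell by 1.36 ± 0.43 (adjusted p = 0.0162), and by 2.11 when replicate 3 was left out (adjusted p = 6.01e-05). The UIRI+Nx d7 value was -0.69 ± 0.43 (adjusted p = 0.242) and did not pass the test.

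Aqp3, a basolateral water and glycerol channel gene (chromosome 4, 41092722 to 41098183, minus strand), reached 7.40, 18.5 and 39.0 CPM (lowest, median and highest) in UIRI+Nx d7, 1.72, 7.61 and 14.8 CPM in UIRI d7, 2.83, 6.52 and 12.7 CPM in UIRI d3 and 20.2, 38.2 and 48.4 CPM in Control. No library of the UIRI d7 and UIRI d3 groups reached the lowest Control library. The log2 fold change against Control was -2.004 ± 0.41 in UIRI d7 (adjusted p = 0.000315) and -2.27 ± 0.42 in UIRI d3 (adjusted p = 0.000116), the lowest value of the 10 genes in each of these comparisons. In UIRI+Nx d7 it was -0.74 ± 0.40 (adjusted p = 0.174), with 3 of 6 libraries below every Control library.

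Aqp4, the other basolateral water channel gene, varied more between libraries. Its lowest, median and highest levels were 9.48, 20.9 and 32.4 CPM in UIRI+Nx d7, 2.99, 6.46 and 36.7 CPM in UIRI d7, 6.44, 13.02 and 25.2 CPM in UIRI d3 and 11.2, 21.9 and 59.8 CPM in Control. The groups overlapped in all 3 comparisons with Control. Aqp4 fell by 1.40 ± 0.52 on the log2 scale in UIRI d7 (adjusted p = 0.0338), and UIRI d7 replicate 1, at 36.7 CPM against 10.3 CPM for the next library, lay far above the rest of its group. Without that library the change was -2.29 (adjusted p = 0.000347), while 7 of the 12 fits without another library lost the call. The values in UIRI d3 (-1.13 ± 0.52, adjusted p = 0.0987) and UIRI+Nx d7 (-0.59 ± 0.51, adjusted p = 0.427) did not pass.

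The ENaC subunits must assemble for full channel activity, and the alpha subunit is the one the others depend on. Its gene Scnn1a (chromosome 6, 125320659 to 125344943, plus strand) had its lowest, median and highest levels at 31.0, 53.8 and 134.3 CPM in UIRI+Nx d7, 12.99, 21.0 and 45.2 CPM in UIRI d7, 20.0, 24.6 and 30.9 CPM in UIRI d3 and 44.8, 54.3 and 79.9 CPM in Control. All UIRI d3 libraries and 5 of 6 UIRI d7 libraries lay below every Control library. Scnn1a fell by 1.26 ± 0.30 on the log2 scale in UIRI d7 (adjusted p = 0.00134) and by 1.21 ± 0.30 in UIRI d3 (adjusted p = 0.00246), and in UIRI+Nx d7 the value was 0.17 ± 0.29 (adjusted p = 0.717), with libraries on both sides of the Control range.

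Scnn1b (chromosome 7, 121865038 to 121918514, plus strand) had its lowest, median and highest levels at 28.8, 66.6 and 79.8 CPM in UIRI+Nx d7, 31.2, 40.4 and 51.1 CPM in UIRI d7, 34.8, 37.6 and 55.0 CPM in UIRI d3 and 48.6, 63.6 and 96.8 CPM in Control. In UIRI d7 and in UIRI d3, 5 of 6 libraries were below every Control library. The gene fell by 0.75 ± 0.21 on the log2 scale in UIRI d7 (adjusted p = 0.00557) and by 0.76 ± 0.21 in UIRI d3 (adjusted p = 0.00637), and its UIRI+Nx d7 value was -0.12 ± 0.21 (adjusted p = 0.729). It overlaps Cog7 on the opposite strand, with the same limit on telling reads apart.

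Scnn1g (chromosome 7, 121734479 to 121768475, plus strand) lies beside Scnn1b and encodes the gamma subunit. Its lowest, median and highest levels were 6.99, 14.4 and 42.6 CPM in UIRI+Nx d7, 5.63, 7.51 and 19.6 CPM in UIRI d7, 4.32, 6.24 and 9.83 CPM in UIRI d3 and 9.95, 15.4 and 27.1 CPM in Control. Only the UIRI d3 libraries all lay below every Control library. Scnn1g fell by 1.32 ± 0.38 on the log2 scale in UIRI d3 (adjusted p = 0.00735), whereas the values in UIRI d7 (-0.72 ± 0.37, adjusted p = 0.128) and UIRI+Nx d7 (0.18 ± 0.37, adjusted p = 0.761) did not pass. Without UIRI d7 replicate 1 the UIRI d7 value was -1.04 (adjusted p = 0.0281).

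Fxyd4, the sodium pump regulator gene (chromosome 6, 117933559 to 117937692, minus strand), was lower at day 7 and not called at day 3. Its lowest, median and highest levels were 36.8, 59.9 and 85.2 CPM in UIRI+Nx d7, 31.0, 53.3 and 61.3 CPM in UIRI d7, 38.4, 75.2 and 106.5 CPM in UIRI d3 and 63.6, 89.9 and 127.6 CPM in Control. All 6 UIRI d7 libraries lay below every Control library, and 3 of 6 did in each of the other injured groups. Fxyd4 fell by 0.85 ± 0.26 on the log2 scale in UIRI d7 (adjusted p = 0.00987), against values of -0.28 ± 0.26 in UIRI d3 (adjusted p = 0.452) and -0.54 ± 0.26 in UIRI+Nx d7 (adjusted p = 0.114).

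The 2 transcription factor genes did not pass in any comparison with Control when all libraries were used. Gata3 (chromosome 2, 9857078 to 9890034, minus strand) had median levels of 46.6 CPM in UIRI+Nx d7, 43.3 CPM in UIRI d7, 36.5 CPM in UIRI d3 and 55.5 CPM in Control, and its log2 fold changes ran between -0.70 (UIRI d3, adjusted p = 0.0694) and -0.29 (UIRI d7, adjusted p = 0.466). Elf5 (chromosome 2, 103411688 to 103450989, plus strand) was the gene with the fewest counts, 4 to 216 per library in the first cohort. Its median levels were 1.97 CPM in UIRI+Nx d7, 1.38 CPM in UIRI d7, 2.67 CPM in UIRI d3 and 2.51 CPM in Control, with log2 fold changes between -0.84 ± 0.57 (UIRI+Nx d7, adjusted p = 0.287) and -0.36 ± 0.55 (UIRI d3, adjusted p = 0.674). Without UIRI d7 replicate 1, the Elf5 value in UIRI d7 was -1.34 (adjusted p = 0.0464). Gata3 is also expressed in mesangial cells and T cells and overlaps another gene, 9230102O04Rik, on its own strand, so its count is not one of principal cells alone.

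**Figure D2:**
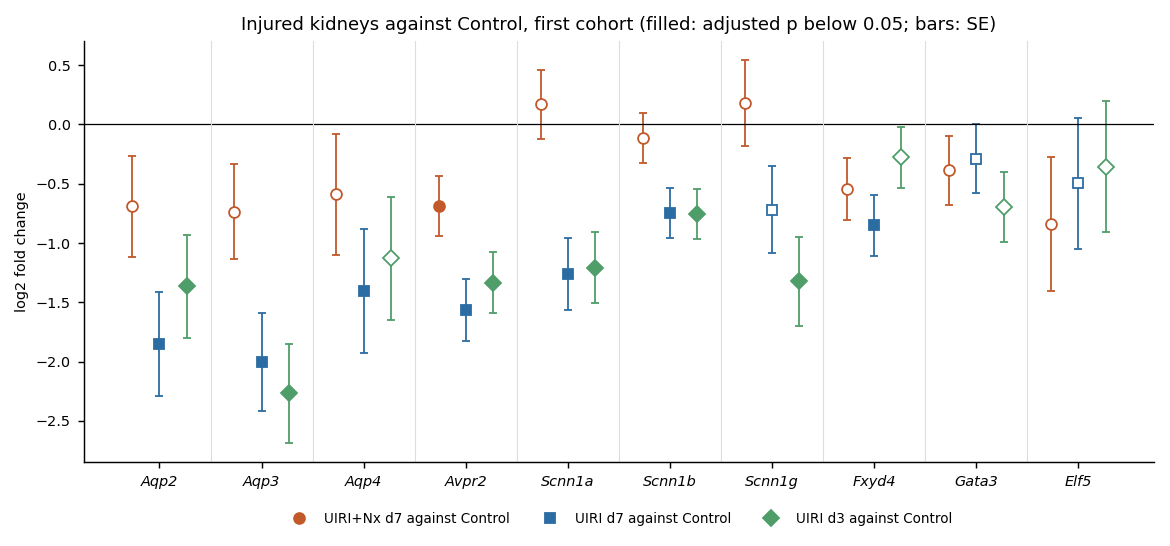
Log2 fold change against Control in the first cohort for each of the 10 genes, with bars of 1 SE; circles are UIRI+Nx d7, squares UIRI d7 and diamonds UIRI d3, and filled symbols passed adjusted p = 0.05. Aqp3 had the lowest values in UIRI d7 (-2.004) and UIRI d3 (-2.27), and Avpr2 was the gene that passed in all 3 comparisons.

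Between day 3 and day 7 without nephrectomy, the first cohort showed no called change in the 10 genes, and in the second cohort 3 fell. In the first cohort 1.24% of 15701 genes were called higher and 1.36% lower, and the median over the 10 genes was -0.10 against 0.01 over all genes. In the second cohort 4.05% of 15543 genes were called lower and 4.51% higher, and the median over the 10 was -0.60 against a median near 0 over all genes. The genes that fell in the second cohort were Aqp2, Fxyd4 and Aqp4.

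Aqp2 had its lowest, median and highest levels in the second cohort at 46.8, 71.6 and 135.0 CPM in UIRI d7 and 157.4, 270.3 and 411.7 CPM in UIRI d3. Every UIRI d7 library lay below every UIRI d3 library, as 2.6% of all genes did in that direction. Aqp2 fell by 1.75 ± 0.27 on the log2 scale (adjusted p = 0.00034), and in every fit that left out 1 library the call held, with values between -1.95 and -1.60. In the first cohort the same change was -0.49 ± 0.43 (adjusted p = 0.704), and without UIRI d3 replicate 3 it was 0.26 (adjusted p = 0.831).

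Fxyd4 levels in the second cohort were 36.5, 40.7 and 44.4 CPM (lowest, median and highest) in UIRI d7 and 56.5, 69.8 and 93.2 CPM in UIRI d3, again with no overlap. Fxyd4 fell by 0.81 ± 0.15 on the log2 scale in the second cohort (adjusted p = 0.00138), against -0.58 ± 0.26 in the first (adjusted p = 0.307). Aqp4 stood at 3.39, 6.09 and 6.41 CPM in UIRI d7 and at 6.25, 9.87 and 24.8 CPM in UIRI d3, with 4 of 6 UIRI d7 libraries below every UIRI d3 library. It fell by 1.27 ± 0.31 (adjusted p = 0.0147), against -0.27 ± 0.52 in the first cohort (adjusted p = 0.895). The library numbers in the column names fall into blocks, and what these stand for is not given. First cohort UIRI d7 has 0 libraries in block 2b, which holds 3 UIRI d3, 2 Control and 2 UIRI+Nx d7 libraries of that cohort. All second cohort UIRI d3 libraries are in block 2a, together with 2 of the 6 UIRI d7 libraries. Within that block Aqp2 changed by -2.28 (adjusted p = 0.0135), and with the block as a covariate it still passed (-1.99, adjusted p = 0.00562), while Fxyd4 (-0.67, adjusted p = 0.062) and Aqp4 (-1.42, adjusted p = 0.0809) did not.

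Other measures also differed between these second cohort groups, some of them in the first cohort as well. The summed level of 12 urothelium genes was 149.1 to 232.9 CPM in UIRI d7 and 283.5 to 523.0 CPM in UIRI d3, and that of 10 thick ascending limb genes 1480 to 2026 CPM in UIRI d7 and 2171 to 2844 CPM in UIRI d3, both without overlap. Of 11 urothelium genes tested, 3 fell and none rose, with a median of -0.80, and of the thick ascending limb genes 3 fell and none rose. Over all genes 4.05% fell and 4.51% rose. The means of Upk1b, Upk3a and Krt5 were 1.29, 7.37 and 0.785 CPM in UIRI d7 and 2.01, 12.9 and 3.36 CPM in UIRI d3. The mean urothelium sums were 195.4 and 371.0 CPM, so most of this sum came from other genes of the list. The mitochondrial share was 2.40 to 3.41% in UIRI d7 and 3.56 to 5.41% in UIRI d3, again without overlap. The first cohort urothelium sum was 125.7 to 252.4 CPM in UIRI d7 and 201.8 to 394.8 CPM in UIRI d3, which overlap, and the median difference between cohorts over these 12 genes was -0.81. The thick ascending limb sum of the first cohort was 1521 to 2060 CPM in UIRI d7 and 2192 to 3223 CPM in UIRI d3, without overlap. Dividing cell and macrophage sums separated in both cohorts. In the second, 8 dividing cell genes summed to 193.8 to 230.6 CPM in UIRI d7 and 462.2 to 577.8 CPM in UIRI d3. There 10 macrophage genes summed to 1853 to 3445 CPM in UIRI d7 and 854.1 to 1324 CPM in UIRI d3. The part of these measures in the fall of Aqp2, Fxyd4 and Aqp4 was not tested.

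The difference between the cohorts in this day 7 against day 3 change was tested in a joint fit of all 40 libraries, as second minus first cohort. Of 16606 genes, 0 passed in edgeR (0.0% called) and 0 in DESeq2, with 484 and 552 at an unadjusted p below 0.05. Among the 10 genes the largest difference was -1.27 ± 0.55 for Aqp2 (unadjusted p = 0.0256), followed by -1.10 ± 0.51 for Scnn1g (unadjusted p = 0.0379) and -1.04 ± 0.78 for Elf5 (unadjusted p = 0.192). Gata3 differed by -0.77 ± 0.35 (unadjusted p = 0.0367), and the adjusted p of each of the 10 was 0.99982. Without UIRI d3 replicate 3 of the first cohort the Aqp2 difference was -2.005 and did not pass. The differences for Scnn1a (-0.13 ± 0.39), Scnn1b (-0.18 ± 0.27) and Fxyd4 (-0.24 ± 0.32) were smaller than their SE. All 10 differences were negative, with a median of -0.80 against -0.02 over all genes, but these genes share libraries and the cohorts were counted on different builds. In each cohort the groups are also unequally spread over the library blocks. A called change in the second cohort with none called in the first is thus not shown to be a difference between cohorts.

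**Figure D3:**
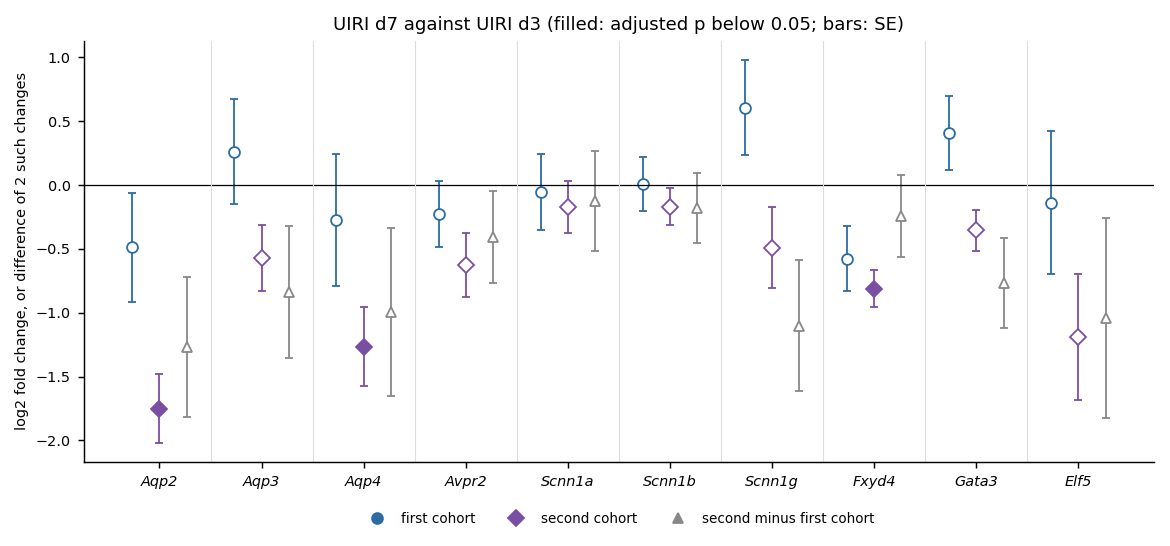
Log2 fold change of UIRI d7 against UIRI d3 in the first cohort (circles) and the second (diamonds), and the second minus the first cohort's change (triangles), with bars of 1 SE; filled symbols passed adjusted p = 0.05. The passing values are those of Aqp2 (-1.75), Aqp4 (-1.27) and Fxyd4 (-0.81) in the second cohort, and all 10 triangles lie below 0 and are open.

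Contralateral nephrectomy went with higher levels of the sodium channel alpha subunit transcript, Scnn1a, in both cohorts. In UIRI+Nx d7 against UIRI d7, 2 of the 10 genes rose and none fell in the first cohort, where 3.17% of all genes were called higher and 3.46% lower. The second cohort had 4 that rose and none that fell, where 2.58% of all genes were called higher and 2.66% lower. The median over the 10 genes was 0.84 in the first cohort, while the second had 0.56, against -0.01 and 0.005 over all genes.

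Scnn1a had levels of 31.0, 53.8 and 134.3 CPM (lowest, median and highest) in first cohort UIRI+Nx d7 and 12.99, 21.0 and 45.2 CPM in UIRI d7, and 4 of 6 nephrectomy libraries lay above every UIRI d7 library. The 4 UIRI+Nx d7 libraries of the second cohort had 36.1, 68.2, 43.4 and 49.0 CPM, against 11.6, 19.2 and 33.1 CPM (lowest, median and highest) in UIRI d7, with no overlap. Scnn1a rose by 1.43 ± 0.30 on the log2 scale in the first cohort (adjusted p = 0.00418) and by 1.33 ± 0.23 in the second (adjusted p = 0.00176). The call held in all 12 and all 10 fits that left out 1 library, and the difference between cohorts was -0.11 ± 0.41 (adjusted p = 0.955). Within single library blocks the value was 1.29 in block 1a of the first cohort (adjusted p = 0.143), and 1.76 in block 2a (adjusted p = 0.00984) and 1.06 in block 2c (adjusted p = 0.333) of the second. These blocks are small: block 1a holds 3 UIRI+Nx d7 and 3 UIRI d7 libraries, block 2a 2 and 2, and block 2c 2 and 4.

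Avpr2 was the other gene that rose in the first cohort, by 0.88 ± 0.26 on the log2 scale (adjusted p = 0.0403). Its per-library levels overlapped, 4 of 6 UIRI+Nx d7 libraries lay above every UIRI d7 library, and 9 of 12 fits that left out 1 library lost the call, as did the library block as a covariate (0.69, adjusted p = 0.111). Second cohort Avpr2 had 7.47, 5.87, 3.47 and 6.36 CPM in UIRI+Nx d7, against 2.11, 3.88 and 4.88 CPM (lowest, median and highest) in UIRI d7, a change of 0.68 ± 0.27 (adjusted p = 0.173).

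Aqp2 rose in the second cohort after nephrectomy. The 4 UIRI+Nx d7 libraries had 243.8, 254.5, 208.8 and 220.5 CPM, against 46.8, 71.6 and 135.0 CPM (lowest, median and highest) in UIRI d7, and all 4 lay above every UIRI d7 library, as 3.03% of all genes did. The change was 1.5 ± 0.29 on the log2 scale (adjusted p = 0.00401), with 2.13 within block 2a (adjusted p = 0.0327) and 1.16 within block 2c (adjusted p = 0.31). In the first cohort it was 1.16 ± 0.43 (adjusted p = 0.11), with 4 of 6 UIRI+Nx d7 libraries above every UIRI d7 library, and with the library block as a covariate it was 1.59 (adjusted p = 0.00486).

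Scnn1b and Fxyd4 also rose in the second cohort with no overlap between the groups. Scnn1b had 47.2, 65.1, 53.9 and 50.0 CPM in UIRI+Nx d7, against 26.0, 32.9 and 46.2 CPM (lowest, median and highest) in UIRI d7, a change of 0.68 ± 0.16 on the log2 scale (adjusted p = 0.0173). Without UIRI+Nx d7 replicate 2, the library at 65.1 CPM, the adjusted p was 0.0967. In the first cohort the Scnn1b change was 0.63 ± 0.21 (adjusted p = 0.0707). UIRI+Nx d7 replicate 4 there had the lowest Scnn1b level, 28.8 CPM, and the highest Scnn1a level, 134.3 CPM, and without it Scnn1b reached 0.78 (adjusted p = 0.0128).

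Fxyd4 had 68.3, 105.2, 62.2 and 62.4 CPM in second cohort UIRI+Nx d7, against 36.5, 40.7 and 44.4 CPM (lowest, median and highest) in UIRI d7. It rose by 0.88 ± 0.16 on the log2 scale (adjusted p = 0.00266), against 0.31 ± 0.26 in the first cohort (adjusted p = 0.557). Aqp3 had values of 1.27 ± 0.41 in the first cohort (adjusted p = 0.0612) and 0.07 ± 0.29 in the second (adjusted p = 0.921). The difference between cohorts was 0.57 ± 0.34 for Fxyd4 (unadjusted p = 0.0998) and -1.18 ± 0.55 for Aqp3 (unadjusted p = 0.0382, adjusted p = 0.576). Over all genes this difference passed for 0 of 16606 in edgeR (0.0% called), with 1411 at an unadjusted p below 0.05, and for 4 in DESeq2, none of them among the 10.

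The first cohort UIRI d7 group holds 1 library on which several of these values rest. UIRI d7 replicate 1 had the highest level of its group for Aqp3, Aqp4, Avpr2, Scnn1g, Gata3 and Elf5. Without it 5 of the 10 genes rose in UIRI+Nx d7 against UIRI d7, in place of 2: Aqp3 (1.5, adjusted p = 0.0363), Aqp4 (1.70, adjusted p = 0.0275) and Scnn1g (1.21, adjusted p = 0.0494) passed in addition. UIRI d7 against Control then had 9 lower in place of 7. The share of all genes called in these refits is not given here. The gain is thus not shown to be particular to the 10 genes.

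**Figure D4:**
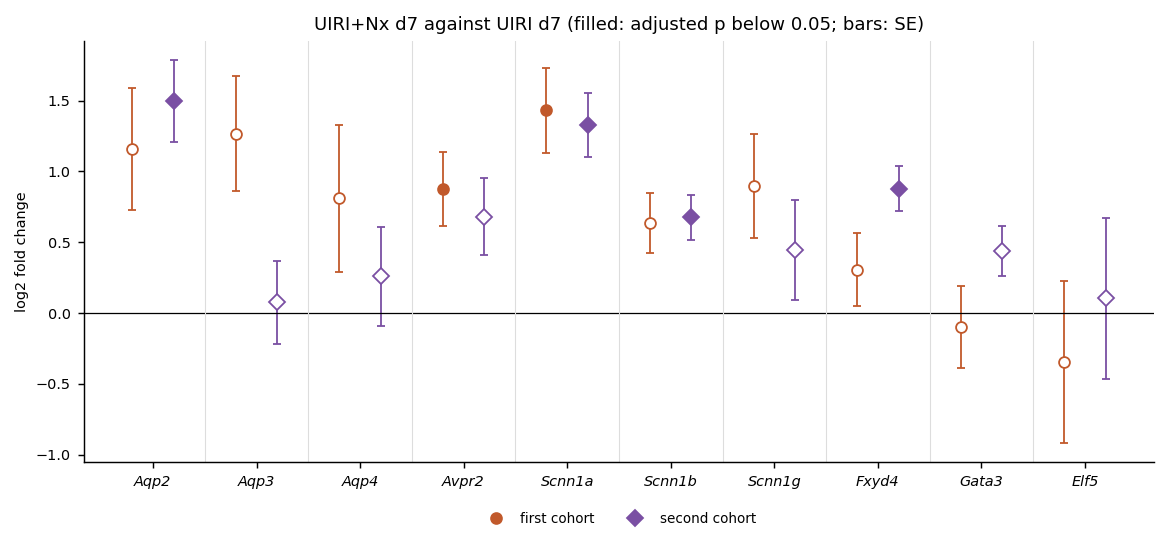
Log2 fold change of UIRI+Nx d7 against UIRI d7 for each of the 10 genes in the first cohort (circles) and the second (diamonds), with bars of 1 SE; filled symbols passed adjusted p = 0.05. Scnn1a is filled in both cohorts, at 1.43 and 1.33, and the values of Elf5 lie within 1 SE of 0.

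Set against day 3, the day of the second operation in the first cohort, UIRI+Nx d7 kidneys of the first cohort had 3 of the 10 genes higher and none lower, where 2.06% of all genes were called higher and 3.06% lower. Scnn1a rose by 1.38 ± 0.30 on the log2 scale (adjusted p = 0.00627), and all 6 libraries lay above every UIRI d3 library, as 1.21% of all genes did. Scnn1g rose by 1.5 ± 0.38 (adjusted p = 0.0169) and Aqp3 by 1.53 ± 0.41 (adjusted p = 0.0268), each with 5 of 6 libraries above every UIRI d3 library. The Aqp3 call was lost in 5 of 12 fits that left out 1 library and with the block covariate (adjusted p = 0.0604), and the Scnn1g call without UIRI+Nx d7 replicate 2. Without UIRI d3 replicate 3, Aqp2 passed as well (1.42, adjusted p = 0.0179). In the second cohort Scnn1a was the 1 gene of the 10 that rose, where 2.97% of all genes rose and 3.04% fell, by 1.15 ± 0.22 (adjusted p = 0.00339), and its 4 UIRI+Nx d7 libraries lay above a UIRI d3 range of 18.7 to 24.7 CPM. This separation was found for Scnn1a and Scnn1b, 2 of the 10 genes, and for 3.04% of all genes. Aqp2 in these second cohort kidneys differed from UIRI d3 by -0.25 ± 0.29 (adjusted p = 0.693), and Fxyd4 by 0.06 ± 0.16 (adjusted p = 0.867).

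For this change the cohorts differed most in Aqp3, by -2.02 ± 0.55 on the log2 scale (unadjusted p = 0.000741, adjusted p = 0.373), and in Scnn1g, by -1.54 ± 0.55 (unadjusted p = 0.00717, adjusted p = 0.655). Second cohort Aqp3 stood at 8.72, 6.63, 6.58 and 6.36 CPM in UIRI+Nx d7 and at 5.38, 9.81 and 13.8 CPM (lowest, median and highest) in UIRI d3. Second cohort Scnn1g stood at 15.4, 5.19, 5.25 and 3.74 CPM in UIRI+Nx d7 and at 3.34, 7.87 and 10.2 CPM in UIRI d3, so that replicate 1 alone of the nephrectomy libraries was above the UIRI d3 range. Over all genes 0 of 16606 passed in edgeR (0.0% called), with 1115 at an unadjusted p below 0.05, and 1 in DESeq2.

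The order of the groups by median level can be read for each gene in the first cohort. For Aqp2, Aqp3 and Avpr2 it was Control, UIRI+Nx d7, then UIRI d7 and UIRI d3, and the last pair did not differ beyond its spread for any of the 3. For Scnn1a and Scnn1b the UIRI+Nx d7 and Control medians lay within their spread of each other, above UIRI d7 and UIRI d3. In the second cohort Scnn1a and Scnn1b were highest in UIRI+Nx d7, while the highest medians of Aqp2, Aqp3, Aqp4, Scnn1g, Fxyd4 and Elf5 were in UIRI d3.

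Other genes of the principal cell and of its hormone pathways were read from lists chosen with these data known. Against Control, 14.9% of all genes tested fell and 17.8% rose in UIRI d3, 18.1% and 21.5% in UIRI d7, and 14.0% and 17.3% in UIRI+Nx d7. Of 24 other principal cell genes tested, 12 fell and 5 rose in UIRI d3 against Control, 9 fell and 6 rose in UIRI d7, and 7 fell and 5 rose in UIRI+Nx d7. This list holds Aqp6, Kcnj1 and Slc14a2, which also stand on the intercalated cell, thick ascending limb and thin limb marker lists, in that order. Its counts are thus not of principal cell genes alone. The genes that rose were led by Krt18, a keratin of simple epithelia (log2 fold change 2.32 in UIRI d3, adjusted p = 9.15e-08), and Cldn4, a tight junction protein that is also on the thin limb list (2.29, adjusted p = 1.05e-06), neither of which is limited to principal cells. Those that fell were led by Atp1b1, the beta subunit of the sodium pump (-1.25 in UIRI d3, adjusted p = 3.53e-06), and Slco4c1, an organic anion transporter (-3.55, adjusted p = 2.26e-06). In bulk tissue neither fall can be assigned to principal cells, and Atp1b1 is also on the osmotic response list. The proximal tubule sum was 10040 to 16420 CPM in UIRI d3 against 46710 to 71900 CPM in Control, and its part in these falls was not tested. In UIRI+Nx d7 against UIRI d7, 3 rose and 2 fell in the first cohort and 4 rose and 1 fell in the second. Over all genes, 3.17% rose and 3.46% fell there in the first cohort, and 2.58% and 2.66% in the second. Kcne1, a potassium channel subunit, rose in both, by 1.33 (adjusted p = 0.0008) and 1.11 (adjusted p = 0.00891). Hsd11b2, the enzyme that keeps cortisol-type steroids off the mineralocorticoid receptor, fell by 0.53 in UIRI d3 against Control (adjusted p = 0.0216) and was not called in UIRI d7 (-0.35, adjusted p = 0.12).

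The vasopressin list held 31 tested genes that carry or limit the signal inside the cell. Against Control, 2 fell and 1 rose in UIRI d3, and 4 fell and 6 rose in UIRI d7. In UIRI+Nx d7 against Control, 1 fell and 2 rose. The list medians were 0.02, 0.07 and 0.02 in that order. Over all genes, the shares that fell were 14.9, 18.1 and 14.0% in the same order, and those that rose 17.8, 21.5 and 17.3%. Arrb2, a beta-arrestin, rose by 1.45 in UIRI d3 (adjusted p = 1.84e-05) and by 1.87 in UIRI d7 (adjusted p = 4.26e-07). In bulk tissue this rise cannot be assigned to principal cells. Pde4d, a phosphodiesterase that breaks down cyclic AMP, fell by 0.67 in UIRI d3 (adjusted p = 0.031) and by 0.75 in UIRI d7 (adjusted p = 0.0131). Myo5b, a motor of recycling vesicles, fell by 0.52 in UIRI d7 against Control (adjusted p = 0.00335) and rose by 0.47 in UIRI+Nx d7 against UIRI d7 (adjusted p = 0.0375). In the second cohort Prkar2a, a regulatory subunit of protein kinase A, fell by 0.55 in UIRI d7 against UIRI d3 (adjusted p = 0.00725) and rose by 0.67 in UIRI+Nx d7 against UIRI d7 (adjusted p = 0.00577).

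Of 28 genes of aldosterone action and ENaC control, 6 fell and 5 rose in UIRI d3 against Control, 9 fell and 7 rose in UIRI d7, and 5 fell and 11 rose in UIRI+Nx d7. Over all genes, the shares that fell were 14.9, 18.1 and 14.0% in the same order, and those that rose 17.8, 21.5 and 17.3%. Nr3c2, the mineralocorticoid receptor, fell by 1.33 in UIRI d3 (adjusted p = 0.0229) and by 1.14 in UIRI d7 (adjusted p = 0.044), at means of 1.60 ± 1.10 CPM in UIRI d3, 1.85 ± 0.96 CPM in UIRI d7 and 4.12 ± 2.24 CPM in Control (SD, n = 6 each, edgeR). Sgk1, the kinase that aldosterone raises to keep ENaC at the surface, had 121.6, 152.6 and 219.3 CPM (lowest, median and highest) in UIRI+Nx d7 and 32.2, 37.2 and 133.9 CPM in UIRI d7 of the first cohort. It rose by 1.59 in that comparison (adjusted p = 0.00146) and by 0.79 in UIRI+Nx d7 against Control (adjusted p = 0.0387), and in the second cohort the UIRI+Nx d7 against UIRI d7 value was 0.90 (adjusted p = 0.111). Wnk4, a kinase of distal salt transport, rose in UIRI+Nx d7 against UIRI d7 by 0.95 in the first cohort (adjusted p = 0.000198) and by 0.75 in the second (adjusted p = 0.0104). Serpine2, a protease inhibitor also made by mesangial cells, rose by 2.87 in UIRI d7 against Control (adjusted p = 3.7e-10). Nedd4l, the ligase that removes ENaC from the surface, was called only in second cohort UIRI d7 against UIRI d3, where it rose by 0.39 (adjusted p = 0.0372).

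Among 31 transcription factor and developmental genes of the collecting duct, 5 fell and 5 rose in UIRI d3 against Control, 5 fell and 9 rose in UIRI d7, and 4 fell and 7 rose in UIRI+Nx d7. Over all genes, the shares that fell were 14.9, 18.1 and 14.0% in the same order, and those that rose 17.8, 21.5 and 17.3%. These shares also stand beside the osmotic response counts below. Elf3 and Klf5, factors of many epithelia, rose by 1.86 (adjusted p = 2.75e-07) and 1.69 (adjusted p = 5.21e-05) in UIRI d7. Lhx1, a factor of the developing duct and tubule, fell by 1.33 there (adjusted p = 2.86e-05), and Esrrb by 2.02 (adjusted p = 0.000125). Tfcp2l1, a factor of collecting duct cell identity, was not called against Control in any group, and rose in the second cohort by 0.46 in UIRI+Nx d7 against UIRI d7 (adjusted p = 0.0479) and by 0.62 against UIRI d3 (adjusted p = 0.00751). Of 14 osmotic response genes, 3 fell and 3 rose in UIRI d3 against Control, 4 fell and 4 rose in UIRI d7, and 5 fell and 1 rose in UIRI+Nx d7. Nfat5, the factor that answers high tonicity, rose by 0.63 in UIRI d7 (adjusted p = 0.0146). Ranbp3l, which that factor is known to control, fell by 2.35 (adjusted p = 1.32e-06).

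Summed markers of several neighbouring tubule segments lay below Control in every injured group of the first cohort, and their part in the results was not tested. The summed level of 12 distal convoluted and connecting tubule genes, a list that holds Wnk4, was 2428 to 3361 CPM in UIRI+Nx d7, 1086 to 1315 CPM in UIRI d7, 1380 to 1842 CPM in UIRI d3 and 4827 to 6254 CPM in Control. The second cohort had 2079 to 2887 CPM in UIRI+Nx d7, 1084 to 1484 CPM in UIRI d7 and 1189 to 1548 CPM in UIRI d3. ENaC subunits are also made in the connecting tubule. Intercalated cells, the other cell type of the collecting duct, had a summed level over 14 genes of 230.1 to 383.2 CPM in UIRI+Nx d7, 234.1 to 282.3 CPM in UIRI d7, 202.6 to 282.3 CPM in UIRI d3 and 541.2 to 696.4 CPM in Control. Of these 14 genes, 11 fell in UIRI d3 against Control and 10 in UIRI d7, and in UIRI+Nx d7 against UIRI d7 the first cohort had 1 that rose, the second cohort 2. Of 10 thick ascending limb genes, 6 fell in UIRI d3 against Control and 8 in UIRI d7, and none was called in UIRI+Nx d7 against UIRI d7 in either cohort. Over all genes, 14.9% fell in UIRI d3 against Control and 18.1% in UIRI d7. For UIRI+Nx d7 against UIRI d7, 3.17% of all genes rose and 3.46% fell in the first cohort, and 2.58% and 2.66% in the second. The 12 thin limb and inner medulla genes summed to 1170 to 1709 CPM in UIRI+Nx d7, 1124 to 1762 CPM in UIRI d7, 890.0 to 1906 CPM in UIRI d3 and 1452 to 2637 CPM in Control, so that these ranges overlap in every pair.

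**Figure D5:**
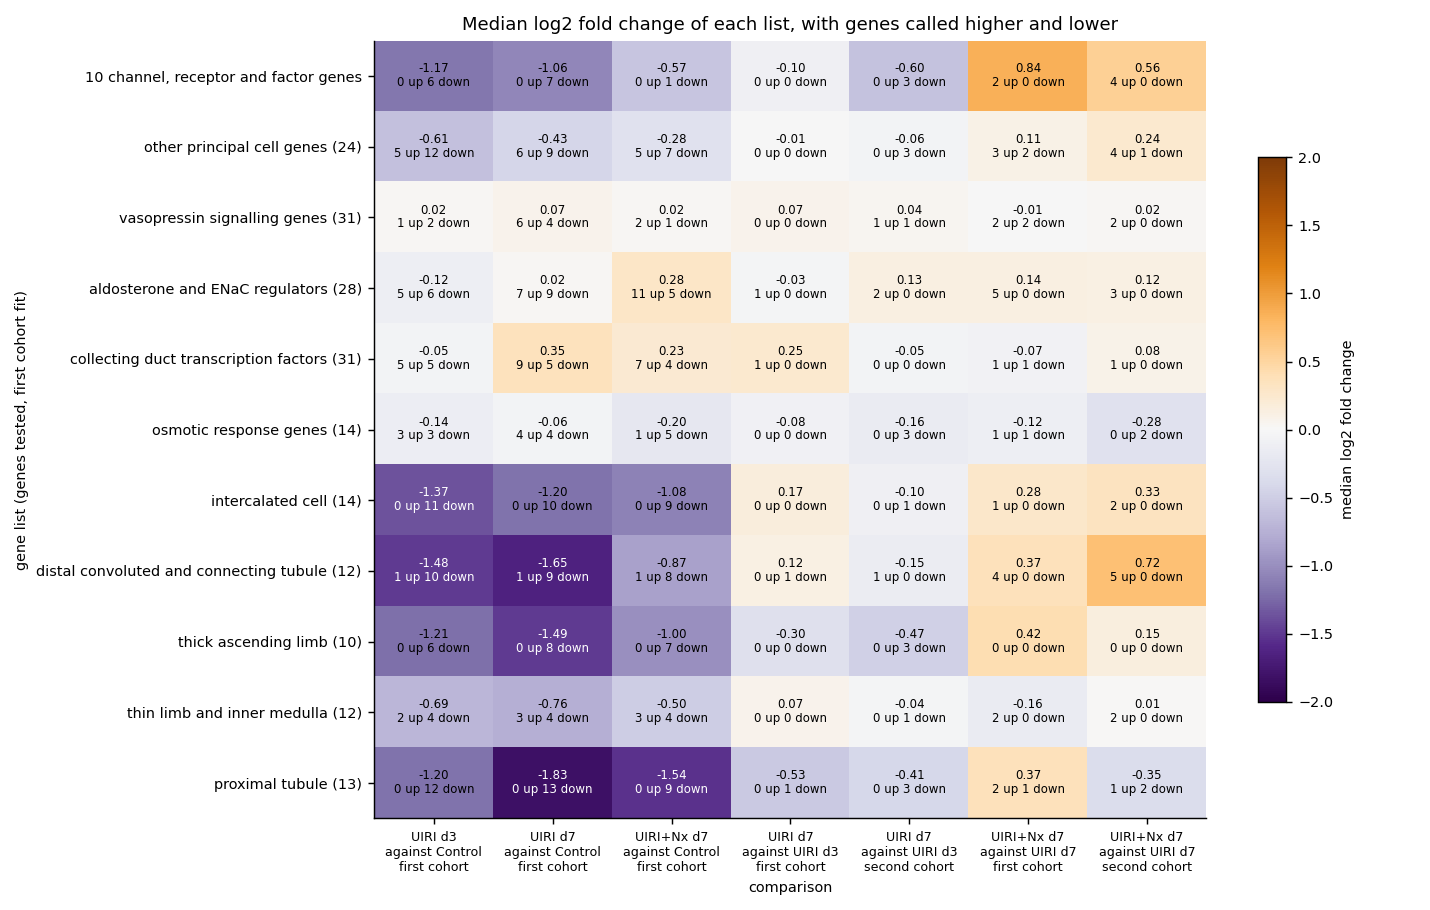
Median log2 fold change of the 10 genes, of 5 related lists and of 5 marker lists of tubule segments (rows, with genes tested) in 7 comparisons (columns), with the number called higher and lower in each cell; purple is below 0 and orange above. The 10 genes and the segment markers are below 0 against Control, and vasopressin signalling genes stay within 0.07 of 0.

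Libraries of a group also differed among themselves, and some pairs of the genes varied together while others did not. With group means removed, Aqp4 and Elf5 had a Pearson r of 0.876 over 24 first cohort libraries and 0.755 over 16 second cohort libraries, and Aqp3 and Scnn1g had 0.777 and 0.677. Other pairs went the opposite way or differed between cohorts. Scnn1a and Gata3 had -0.549 and -0.46, Scnn1a and Scnn1b -0.506 and 0.837, and Aqp2 and Avpr2 0.01 and 0.777. These are descriptions over libraries that also share depth and the piece of kidney sampled. By the shape of the 7 group means, centred within each cohort, the 3 genes closest to Scnn1a among 11457 searched were Ppara (root mean square distance 0.0971 on the log2 scale), Sostdc1 (0.116) and Kcne1 (0.144). For Aqp2 they were St6galnac3 (0.269), Fmo1 (0.303) and Slc5a12 (0.32), and for Scnn1b the closest was Igf2r (0.0601).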

How the data were processed

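RNA of a cryosectioned kidney pole was sequenced with a 3′ end library kit, per the labels' protocols. The authors deposited whole-number read counts of 48795 genes in 41 columns. Per the submitters' processing notes, the tools were Trimmomatic, STAR and HTSeq 0.6.1 on GRCm38 for the first cohort, and STAR 2.7.11b on GRCm39 for the second; the strand setting is not given in the sources used here. Of the IDs, 48349 had a symbol and 446 had none. Totals were 5090418 to 33362940 counts per library, and 1 library of undetermined reads entered no comparison. Replicates are separate libraries, and where nothing says that they came from separate animals, p-values measure only the spread between them.

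Counts were tested with edgeR 4.0.16 in R 4.3.3 (TMM scaling, filterByExpr, quasi-likelihood F test), all groups of a cohort together, with Benjamini-Hochberg adjustment over all genes and a threshold of 0.05. The difference between cohorts was an interaction in 1 fit of 40 libraries. SE is the absolute log2 fold change over the square root of F. CPM uses the TMM-scaled library size, except in the library of undetermined reads, where it uses the plain total. The code was tested on simulated data. Alternatives included DESeq2 1.42.0, other scalings and filters, library blocks and leaving out each library.

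The 10 genes and all lists were chosen with earlier results of these data known. All 10 are named in every comparison; from each related list the genes named are up to 2 per direction with the smallest adjusted p among those reaching a group mean of 5 CPM, and Hsd11b2, Sgk1, Nr3c2, Nedd4l, Tfcp2l1 and Nfat5. Gene positions are from GENCODE on GRCm38. The closest profiles used group means of log2 CPM with a pseudocount of 0.5.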

Additional observations from a re-analysis of the deposited data

Results flagged for a closer look

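In 9 of 70 combinations of gene and group, 1 library stood apart from the others of its group by Dixon's test on CPM. Its cutoffs mark about 1 in 20 for normally spread values, and the rate for CPM without a log scale was not measured. In each of the 9 the library was the highest of its group. In the first cohort these were Aqp2 in UIRI d3 replicate 3, at 785.8 CPM with the next library at 231.5 CPM, and Scnn1b in UIRI d3 replicate 4, at 55.0 CPM with the next at 39.4 CPM. UIRI d7 replicate 1 stood apart for Aqp4, at 36.7 CPM with the next at 10.3 CPM, and for Elf5, at 7.22 CPM with the next at 2.02 CPM.

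In second cohort UIRI+Nx d7, replicate 1 stood apart for Aqp3, at 8.72 CPM with the next at 6.63 CPM, and for Scnn1g, at 15.4 CPM with the next at 5.25 CPM. Replicate 2 of that group stood apart for Fxyd4, at 105.2 CPM with the next at 68.3 CPM. Second cohort UIRI d7 replicate 3 stood apart for Elf5, at 2.87 CPM with the next at 1.203 CPM, and second cohort UIRI d3 replicate 1 for Gata3, at 46.1 CPM with the next at 31.6 CPM.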

How the results depend on the processing

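Of the recomputed counts of the 10 genes called, 245 stayed within 1.5 times the count first given and 33 did not. Without a filter on low counts, UIRI+Nx d7 against Control had 0 and UIRI+Nx d7 against UIRI d7 in the first cohort 1, and 1 also when only its 2 groups were fitted. Second cohort UIRI+Nx d7 against UIRI d3 had 3 in DESeq2. Second cohort UIRI d7 against UIRI d3 had 1 with the library block as a covariate and 1 within block 2a. Within block 1a, UIRI d7 against Control had 3, UIRI+Nx d7 against Control 0, against UIRI d7 1 and against UIRI d3 0, the last also 0 within block 2b. Second cohort UIRI+Nx d7 against UIRI d7 had 2 within block 2a and 0 within block 2c. Leaving out 1 library gave 0 to 1 for UIRI+Nx d7 against Control, 1 to 5 for it against UIRI d7 and 1 to 4 against UIRI d3 in the first cohort, and 1 to 3 for second cohort UIRI+Nx d7 against UIRI d3. The fits within blocks used fewer libraries, and the causes of these changes in count were not tested.

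Replicate numbers did not pair the samples: correlations of same-numbered deviations ran between -0.46 and 0.491, and in no comparison were all above 0.1. With a replicate block, second cohort UIRI+Nx d7 against UIRI d3 had 2 called, and the other counts stayed within 1.5 times. For single genes, 65 results lost their call under an alternative, 26 gained one and none reversed while called. Over all genes, DESeq2 called 714 in first cohort UIRI d7 against UIRI d3 where edgeR called 409, and 1249 in second cohort UIRI+Nx d7 against UIRI d7 where edgeR called 814. In edgeR, fitting only the 2 groups gave 586 for first cohort UIRI+Nx d7 against UIRI d7 in place of 1040, and the block covariate gave 349 for second cohort UIRI d7 against UIRI d3 in place of 1330. Within block 1a the counts over all genes were 2729 for UIRI d3 against Control (5132 over all blocks), 2933 for UIRI+Nx d7 against Control (4909), 131 for it against UIRI d7 (1040), 113 against UIRI d3 (805) and 0 for UIRI d7 against UIRI d3 (409). Block 2b gave 2366, 1709 and 37 for the comparisons it holds (UIRI d3 and UIRI+Nx d7 against Control, and UIRI+Nx d7 against UIRI d3). In the second cohort block 2a gave 176 for UIRI+Nx d7 against UIRI d7 (814), 477 against UIRI d3 (935) and 207 for UIRI d7 against UIRI d3 (1330), and block 2c gave 16 for UIRI+Nx d7 against UIRI d7. Elf5 had as few as 4 counts in a library, and how depth limits its test was not measured.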

Other observations

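The library of undetermined reads, which the labels put in no group, held 12446693 counts. Its CPM use this total without TMM scaling, so they are not on the same scale as the other levels. Aqp2 was at 265.1 CPM there (95% Wilson interval 256.2 to 274.3), Scnn1a at 32.7 CPM (29.7 to 36.0) and Avpr2 at 7.79 CPM (6.39 to 9.51). The intervals cover counting error only.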
